A study of Mus musculus with 12 samples.

Results

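Facial motor neurons (cMN7) are born near the ventral midline of the hindbrain and then migrate caudally through it, whereas oculomotor (cMN3) and trochlear (cMN4) neurons do not make this journey. The genes described here are 10 planar cell polarity genes that bear on that migration or belong to the same protein network: Celsr1, Celsr2, Celsr3, Vangl1, Vangl2, Prickle1, Prickle2, Ptk7, Fzd3 and Scrib. They were taken by name, not by a cut on their values, although earlier results of these data were known. They are 10 of the 49671 genes in the quantification. All 10 passed the filter on low counts, as did 18022 genes in all. The question was how their levels in cMN7 compared with those in cMN3 and cMN4.

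The data were 12 bulk RNA-seq libraries from mouse embryos that carried the Isl1 MN:GFP reporter, a transgene that labels motor neurons with GFP, and whose genotype was otherwise given as wild type. Reporter males of a 129S1/C57BL/6J background had been crossed with C57BL/6J females, and embryo sex was not determined. GFP-positive cells were microdissected and sorted from cMN3, cMN4 and cMN7 at embryonic ages e10.5 and e11.5 (days after conception), with 2 libraries in each of the 6 groups. No group carried any other allele or treatment. Each library pooled cells from several litters, so the replicates are pools. Apart from the permutation test of shares, the p-values measure the spread between pools. The e10.5 RNA was amplified by a whole-transcriptome method, while polyadenylated RNA was selected at e11.5 and beta-globin and ribosomal transcripts were removed, so age and preparation cannot be told apart. Comparisons between nuclei were therefore read within each age as well as over both.

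Planar cell polarity is a signaling system that orients cells within the plane of a tissue. Frizzled and Dishevelled proteins gather at one side of a cell and Vangl and Prickle proteins at the opposite side, and the large Celsr cadherins bridge neighboring cells between them. Scrib, a scaffold of the basolateral membrane, and Ptk7, a catalytically inactive receptor kinase, act with this core. In the vertebrate hindbrain, loss of several of these genes halts or misdirects the caudal migration of facial motor neurons, and part of the requirement lies in the cells through which the neurons move. The libraries held only sorted GFP-positive cells and say nothing of that environment.

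Marker genes separated cMN7 from the other nuclei. Of 5 oculomotor and trochlear genes, 3 were lower in cMN7, and 1 was higher and 1 lower in cMN3 than in cMN4. The summed level of 3 facial genes (Tbx20, Hoxb1 and Gata3) was between 276 and 806 TPM (transcript abundance corrected for length and scaled to a fixed total per library) in cMN7 and at most 13.2 TPM in cMN3 and cMN4. The summed expected counts per library ranged from 13991802 to 30536210. Ribosomal RNA loci took 8.86 to 30.2% of the counts at e10.5 and at most 0.571% at e11.5, and since TPM values share a fixed total, TPM of all other genes were lowered most in replicate 2 of cMN3 and cMN4 at e10.5. Some marker lists of other states moved with the groups. A list of 8 neural progenitor genes summed to 920–1220 TPM in cMN7 and 469–839 TPM in cMN3 and cMN4, except for 1417 TPM in cMN4 e11.5 replicate 2, and 2 of its 8 genes were higher in cMN7. That same cMN4 library had 491 TPM of 5 cell cycle genes, against 70.3–118 TPM in the others. A list of 5 sensory ganglion genes summed to 51.6–95.7 TPM in cMN7 and 21.6–48.5 TPM elsewhere, with Pou4f1 among its genes higher in cMN7, while a list of 5 floor plate genes had 3 that were lower in cMN7 and 3 that were higher in cMN3 than in cMN4, and summed to 31.0–44.6 TPM in cMN7, 49.5–112 TPM in cMN3 and 19.4–71.5 TPM in cMN4. A further 4 surface epithelium genes stayed at or below 2.69 TPM in every library. Of 6 motor neuron genes 4 were higher and 1 was lower in cMN7, but Isl1, an enhancer of which drives the reporter, differed by 0.02 on the log2 scale (adjusted p = 0.956, edgeR). Of all genes tested, 6.18% were higher and 5.05% lower in cMN7, and 3.57% were higher and 3.48% lower in cMN3 than in cMN4. The part of these marker differences in the results that follow was not tested.

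Over both ages, cMN7 differed from cMN3 and cMN4 together (cMN3/4) in 5 of the 10 genes. Prickle1, Vangl2, Ptk7 and Prickle2 were higher in cMN7, by 3.51-, 1.82-, 1.73- and 1.63-fold, and Celsr1 was 6.12-fold lower. Celsr2, Celsr3, Vangl1, Fzd3 and Scrib did not pass the test. With the same test, edgeR's quasi-likelihood test with a Benjamini-Hochberg adjusted p below 0.05, 11.2% of all genes tested passed in either direction, 6.18% higher and 5.05% lower. The median log2 fold change was 0.32 over the 10 genes and 0.01 over all genes tested. In bulk samples, fewer cells of a type and less RNA per cell cannot be told apart.

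**Figure D1:**
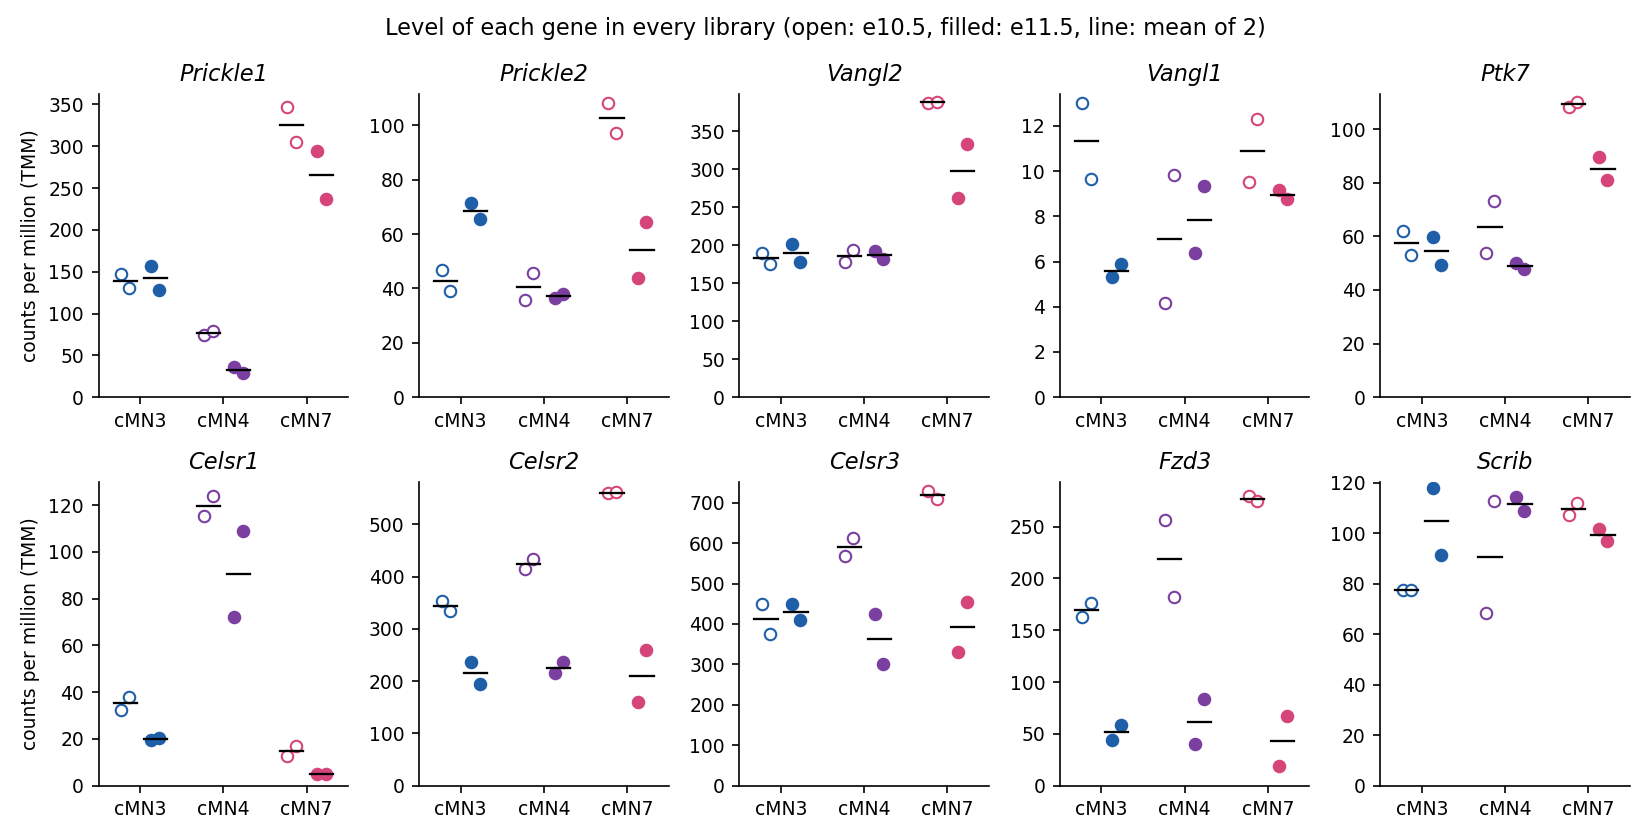
Level of each of the 10 genes in every library, in CPM after TMM scaling (y axis, from 0), by nucleus (x axis). Open circles are e10.5, filled circles e11.5 and lines the mean of 2 libraries; all 4 cMN7 libraries lie above the 8 others for Prickle1, Vangl2 and Ptk7 and below them for Celsr1.

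The Prickle genes encode cytoplasmic LIM-domain proteins that bind Vangl at the membrane. Prickle1 (ENSMUSG00000036158; GRCm38 chromosome 15, 93499114 to 93595891, minus strand) had the largest increase in cMN7 of the 10. Its level in CPM (counts scaled to a common library size by TMM) was 347 and 305 in the cMN7 libraries of e10.5 and 295 and 236 in those of e11.5. In cMN3 it was 148 and 131 at e10.5 and 157 and 128 at e11.5. In cMN4 it was 73.7 and 78.7 at e10.5 and 36.5 and 29.1 at e11.5. Every cMN7 library was thus above every cMN3 library, and every cMN3 library above every cMN4 library, and at neither age did the nuclei overlap. The order of the group means ran from cMN7 at e10.5 (326 ± 30.1 CPM, SD, n = 2) and cMN7 at e11.5 (266 ± 41.3) through cMN3 at e11.5 (142 ± 20.0) and at e10.5 (139 ± 12.2) to cMN4 at e10.5 (76.2 ± 3.50) and at e11.5 (32.8 ± 5.23), and neighbors in this order overlapped in their library values only between the cMN3 groups. The log2 fold change in cMN7 was 1.81 (SE 0.10, adjusted p = 2.23e-07, edgeR) over both ages, 1.66 (SE 0.14) at e10.5 and 1.96 (SE 0.14) at e11.5. It was called under each of the 20 alternative settings tried, with values from 1.73 to 2.0.

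Prickle2 (ENSMUSG00000030020; GRCm38 chromosome 6, 92370908 to 92706155, minus strand), its paralogue, was higher in cMN7 at e10.5 but not detectably so at e11.5. At e10.5 it was at 108 and 97.2 CPM in cMN7, at 46.6 and 39.1 CPM in cMN3 and at 35.7 and 45.8 CPM in cMN4. At e11.5 it was at 43.9 and 64.6 CPM in cMN7, at 71.5 and 65.5 CPM in cMN3 and at 36.5 and 38.0 CPM in cMN4. The younger cMN7 libraries stood well clear of the rest, whereas the older ones lay between cMN4 and cMN3 without reaching the latter. Its log2 fold change in cMN7 was 1.30 (SE 0.16, adjusted p = 0.000351, edgeR) at e10.5 and 0.10 (SE 0.17, adjusted p = 0.89) at e11.5.

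Vangl proteins are 4-pass membrane proteins at the core of the pathway. Vangl2 (ENSMUSG00000026556; GRCm38 chromosome 1, 172000960 to 172028444, minus strand) was higher in cMN7 at both ages, and its level in cMN3 and cMN4 was nearly the same. In cMN7 it was at 388 and 389 CPM at e10.5 and at 262 and 333 CPM at e11.5. In cMN3 it was at 189.8 and 176 CPM at e10.5 and at 201 and 178 CPM at e11.5, and in cMN4 at 178 and 194 CPM at e10.5 and at 193 and 182 CPM at e11.5. All 8 libraries of the eye motor nuclei thus fell within 176 to 201 CPM, and the 4 groups they form did not differ beyond their spread. In cMN7 the log2 fold change was 1.07 (SE 0.12, adjusted p = 0.000129, edgeR) at e10.5 and 0.66 (SE 0.12, adjusted p = 0.00619) at e11.5. The e11.5 value missed the threshold when the 6 libraries of that age were fitted alone (0.67, adjusted p = 0.0536) and on the TPM scale (0.53, adjusted p = 0.544). Cells of cMN3 and cMN4 did not detectably differ in Vangl2 (log2 fold change 0.00, SE 0.10, adjusted p = 1).

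Vangl1 (ENSMUSG00000027860; GRCm38 chromosome 3, 102153583 to 102204693, minus strand) was scarce in all nuclei. Its level ranged from 4.17 to 13.0 CPM, with 66 to 348 counts behind each value. The log2 fold change in cMN7 over both ages was 0.37 (SE 0.23, adjusted p = 0.386, edgeR), and it passed in none of the comparisons between nuclei by edgeR, with unadjusted p-values from 0.141 to 0.689.

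Ptk7 (ENSMUSG00000023972; GRCm38 chromosome 17, 46564471 to 46629504, minus strand) followed Vangl2. In cMN7 it was at 108 and 110.2 CPM at e10.5 and at 89.7 and 80.9 CPM at e11.5. In cMN3 it was at 61.9 and 52.9 CPM at e10.5 and at 59.8 and 49.1 CPM at e11.5, and in cMN4 at 53.7 and 73.0 CPM at e10.5 and at 50.1 and 48.0 CPM at e11.5. The lowest cMN7 library stood above the highest of the others, cMN4 e10.5 replicate 2. Against cMN3/4 it differed by 0.86 on the log2 scale (SE 0.14, adjusted p = 0.00265, edgeR) at e10.5 and 0.72 (SE 0.14, adjusted p = 0.0111) at e11.5. The e11.5 value no longer passed without replicate 2 of cMN3 (0.64, adjusted p = 0.0597), without replicate 1 of cMN7 (0.64, adjusted p = 0.0909) or on the TPM scale (0.59, adjusted p = 0.265).

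Reference sequence upstream of the start site is shown for Prickle1, Prickle2 and Ptk7, which passed as higher in cMN7 over both ages. Vangl2 also did, but its window overlaps an annotated exon and is not printed. The windows printed, the first of each gene in the table, overlap no annotated exon. The RefSeq promoter table (GRCm38.p6) held 10 windows for 6 of the 10 genes, and it held none for Celsr1, Vangl1, Fzd3 and Scrib. The 250 bases before the start site are written 5′ to 3′ on the strand of the gene. Capitals mark matches on either strand to the GC box letters GGGCGG, a binding motif of Sp-family factors, or to the CCAAT box letters CCAAT.
Prickle1, first window (chr15:93595903-93596152, minus strand): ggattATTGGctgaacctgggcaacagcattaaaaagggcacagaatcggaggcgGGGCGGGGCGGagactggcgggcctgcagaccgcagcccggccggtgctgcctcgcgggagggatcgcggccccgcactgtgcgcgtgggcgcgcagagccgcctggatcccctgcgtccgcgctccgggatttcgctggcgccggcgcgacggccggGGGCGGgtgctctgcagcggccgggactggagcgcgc
Prickle2, first window (chr6:92706185-92706434, minus strand): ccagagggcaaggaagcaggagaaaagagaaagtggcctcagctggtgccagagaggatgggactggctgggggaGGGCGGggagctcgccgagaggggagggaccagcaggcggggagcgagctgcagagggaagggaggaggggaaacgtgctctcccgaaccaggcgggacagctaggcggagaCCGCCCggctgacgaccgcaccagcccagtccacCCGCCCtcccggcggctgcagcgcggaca
Ptk7 (chr17:46629505-46629754, minus strand): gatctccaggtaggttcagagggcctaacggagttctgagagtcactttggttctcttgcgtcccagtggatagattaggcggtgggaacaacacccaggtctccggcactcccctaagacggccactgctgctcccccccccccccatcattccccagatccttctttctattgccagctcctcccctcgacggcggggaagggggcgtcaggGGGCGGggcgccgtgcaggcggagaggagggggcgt
The printed windows hold 74.0%, 70.0% and 64.0% G and C, against a median of 52.4% over all 32851 windows of the same length. The second window of Prickle1, which overlaps an annotated exon, is at 60.8%, and the other 3 windows of Prickle2 lie below that median, at 46.4 to 50.8%. GGGCGG was present in 8 of the 10 windows and in 32.7% of all windows, and CCAAT in 2 of the 10 and in 33.8% of all. The T-box letters AGGTGTGA, the recognition motif of the factor family that includes Tbx20, were in none of the 10 windows and in 1.12% of all. The homeodomain core TAATTA was likewise in none of the 10 windows, and in 4.84% of all. The same held for the TATA box letters TATAAA, which 12.4% of all windows contain, and for the E-box letters CACGTG, which 6.02% contain. These counts describe letters in the reference and are not evidence of binding.

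The Celsr genes encode 7-pass cadherins that link neighboring cells. Celsr1 (ENSMUSG00000016028; GRCm38 chromosome 15, 85898929 to 86033777, minus strand) was the only one of the 10 genes to be lower in cMN7 than in cMN3/4. In cMN7 it was at 12.7 and 17.0 CPM at e10.5 and at 5.08 and 4.85 CPM at e11.5. In cMN3 it was at 32.5 and 37.8 CPM at e10.5 and at 19.6 and 20.5 CPM at e11.5. In cMN4 it was at 115 and 124 CPM at e10.5 and at 72.0 and 109 CPM at e11.5. The order of the nuclei was therefore the reverse of that for Prickle1, with cMN4 above cMN3 and cMN3 above cMN7 and no overlap between any of them. The log2 fold change in cMN7 was −2.61 (SE 0.15, adjusted p = 2.63e-07, edgeR) over both ages, −2.13 (SE 0.20) at e10.5 and −3.10 (SE 0.21) at e11.5. It passed in every one of the 20 alternative settings, with values from −2.73 to −1.87. The lowest values rested on 124 and 132 counts, in the cMN7 libraries of e11.5.

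Celsr2 (ENSMUSG00000068740; GRCm38 chromosome 3, 108390851 to 108415552, minus strand) was among the abundant genes of the set, at 559 and 561 CPM in cMN7 at e10.5. Libraries of the eye motor nuclei at that age lay between 335 and 433 CPM, below both cMN7 libraries. At e11.5 it was at 161 and 259 CPM in cMN7, and the libraries of cMN3 and cMN4 lay within this range, at 194 to 237 CPM. The log2 fold change was 0.55 (SE 0.16) at e10.5, with an adjusted p of 0.0517 (edgeR) that missed the threshold, and −0.07 (SE 0.17, adjusted p = 0.941) at e11.5.

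Celsr3 (ENSMUSG00000023473; GRCm38 chromosome 9, 108826320 to 108852969, plus strand) showed a similar pattern. It was at 730 and 709.8 CPM in cMN7 at e10.5, above the 376 to 613 CPM of the other 4 libraries of that age, and at 331 and 454 CPM in cMN7 at e11.5, where the nuclei overlapped. Its difference was 0.54 on the log2 scale (SE 0.16, adjusted p = 0.0524, edgeR) at e10.5 and −0.01 (SE 0.16, adjusted p = 1) at e11.5. The e10.5 values of Celsr2 and Celsr3 lay close to the threshold and each passed it under 10 of 21 alternative settings.

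Fzd3 (ENSMUSG00000007989; GRCm38 chromosome 14, 65192449 to 65262463, minus strand) encodes a 7-pass Wnt receptor of the Frizzled family. It was at 280.1 and 274 CPM in cMN7 at e10.5, above the 163 to 256 CPM of cMN3 and cMN4, and at 18.7 and 67.5 CPM in cMN7 at e11.5, where the other nuclei spanned 40.3 to 83.2 CPM. Replicate 1 of cMN7 at e11.5 held the lowest value of all 12 libraries. The log2 fold change in cMN7 over both ages was 0.07 (SE 0.28, adjusted p = 0.943, edgeR). It moved to 0.39 (adjusted p = 0.265) without that replicate and to −0.54 (adjusted p = 0.133) without replicate 2 of the same group. Without replicate 2, Fzd3 passed as lower in cMN7 at e11.5 (−1.61, adjusted p = 0.0184) and in the interaction of nucleus and age (−2.14, adjusted p = 0.0142). Replicate 1 was also below every other library for Celsr2, and with its partner it formed the group with the widest replicate spread, an SD of the log2 ratio of 0.488 over abundant genes against 0.154 for cMN7 at e10.5. Without replicate 1, 7 of the 10 genes passed over both ages, with Celsr2 (0.39, adjusted p = 0.00799) and Celsr3 (0.37, adjusted p = 0.0491) added.

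Scrib (ENSMUSG00000022568; GRCm38 chromosome 15, 76047158 to 76069784, minus strand) had the narrowest relative range, from 68.2 to 118 CPM over the 12 libraries. Its log2 fold change in cMN7 was 0.14 (SE 0.12, adjusted p = 0.587, edgeR) over both ages, and the nuclei overlapped at both ages. On the TPM scale it passed over both ages (0.53, adjusted p = 0.035), where the median of all genes also moved to 0.14, and at e10.5 (1.06, adjusted p = 0.00542), where that median moved to 0.38.

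At e10.5 alone 4 of the 10 genes were higher and 1 was lower in cMN7, where 6.16% of all genes tested were higher and 5.33% lower. At e11.5 3 were higher and 1 was lower, where 2.71% of all genes were higher and 2.26% lower. Prickle1, Vangl2, Ptk7 and Celsr1 passed at both ages and Prickle2 at e10.5. At e10.5 both cMN7 libraries lay above all 4 others for 7 genes (Prickle1, Prickle2, Vangl2, Ptk7, Celsr2, Celsr3 and Fzd3) and below them for Celsr1, and 17.9% and 13.1% of all genes tested did so. At e11.5 they lay above for 3 genes (Prickle1, Vangl2 and Ptk7) and below for Celsr1, against 10.1% and 11.1% of all genes. The count at e10.5 was 8 without a filter on low counts, and 8 when the libraries of that age were fitted alone. The count at e11.5 was 2, Prickle1 and Celsr1, on the TPM scale.

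**Figure D2:**
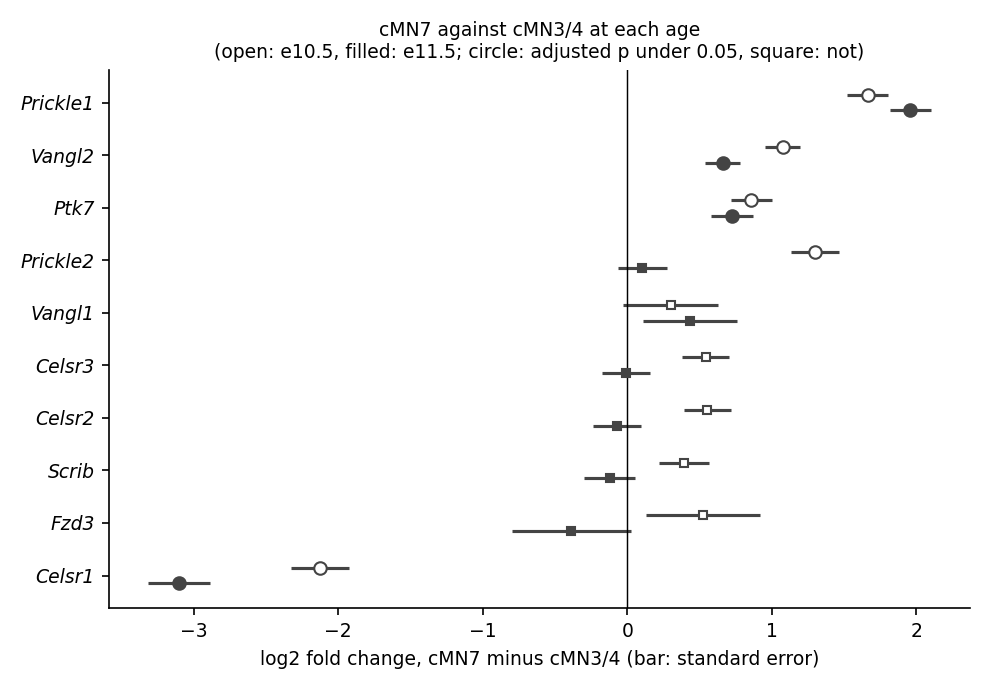
Log2 fold change of each gene in cMN7 against cMN3/4 (x axis, bars are standard errors), with genes on the y axis in the order of their change over both ages. Open symbols are e10.5, filled symbols e11.5; circles passed an adjusted p of 0.05 and squares did not. Prickle1 (1.66 and 1.96) and Celsr1 (−2.13 and −3.10) lie at opposite ends at both ages.

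The difference between the ages was itself tested as an interaction of nucleus and age. None of the 10 genes passed (edgeR), against 0.755% of all genes tested (0.444% higher, 0.311% lower), although 5 had an unadjusted p under 0.05 (Prickle2, Celsr1, Celsr2, Vangl2 and Celsr3). The strongest was Prickle2, whose log2 fold change in cMN7 at e11.5 minus that at e10.5 was −1.19 (SE 0.24, adjusted p = 0.0501). It passed under 6 of 20 alternative settings, among them DESeq2 (adjusted p = 0.000485) and a replicate block within each age (adjusted p = 0.0206). With DESeq2 and with the block 2 of the 10 genes passed, Prickle2 and Celsr1, and 5 did so without replicate 2 of cMN7 at e11.5, with Prickle2 at −1.52 (adjusted p = 0.00454).

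Compared with each nucleus separately, cMN7 differed in 4 of the 10 genes from cMN3 and in 5 from cMN4, where 11.3% (5.89% higher, 5.44% lower) and 9.62% (4.89% higher, 4.73% lower) of all genes tested passed. Both comparisons share the cMN7 libraries. Prickle1 was 2.09-fold higher in cMN7 than in cMN3 (log2 1.06, SE 0.12) and 5.88-fold higher than in cMN4 (log2 2.56, SE 0.13). Celsr1 was 3.09-fold lower in cMN7 than in cMN3 (log2 −1.63, SE 0.15) and 12.1-fold lower than in cMN4 (log2 −3.60, SE 0.16). Vangl2 was 1.83- and 1.82-fold higher and Ptk7 1.73-fold higher in either comparison. Prickle2 was 1.92-fold higher than in cMN4 (adjusted p = 0.000893, edgeR), and its difference of 0.46 on the log2 scale from cMN3 missed the threshold (adjusted p = 0.0539), with a value of 0.0406 under the replicate block.

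Oculomotor and trochlear neurons differed from each other in 2 of the 10 genes, where 7.06% of all genes tested passed, 3.57% higher and 3.48% lower. Prickle1 was 2.82-fold higher in cMN3 than in cMN4 (log2 1.49, SE 0.12, adjusted p = 2.37e-05, edgeR), and Celsr1 was 3.92-fold lower in cMN3 (log2 −1.97, SE 0.15, adjusted p = 1.45e-05). Thus the genes with the largest difference between cMN7 and the eye motor nuclei also separated cMN3 from cMN4, in opposite directions. Vangl2 and Ptk7 did not pass here, with log2 differences of 0.00 (SE 0.10) and 0.01 (SE 0.12).

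Between the ages, averaged over the nuclei, 6 of the 10 genes were lower at e11.5 and the other 4 did not pass, where 49.8% of all genes tested passed, 26.6% higher and 23.1% lower. Fzd3 was 4.22-fold lower (log2 −2.08, SE 0.28), Celsr2 2.0-fold lower and Celsr1 1.91-fold lower, and smaller differences passed for Celsr3 (−0.51), Prickle1 (−0.49) and Ptk7 (−0.27, adjusted p = 0.0409, edgeR), whose call was lost in 11 of the 12 fits without 1 library (adjusted p = 0.178 without replicate 2 of cMN3 at e11.5). Every e11.5 library lay below every e10.5 library for Fzd3 and Celsr2 but not for the other genes. On the TPM scale, where the median of all genes moved to 0.33, the count was 3, with 2 lower and 1 higher. Amplified and oligo-dT selected RNA are compared here, so the age of the embryo and the preparation cannot be told apart.

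Levels can be compared between genes only per length, in TPM. In cMN7 at e10.5 the abundant genes were Celsr3 (182 ± 11.2 TPM, SD, n = 2), Vangl2 (177 ± 3.19), Celsr2 (172 ± 5.78), Prickle1 (164 ± 19.2) and Fzd3 (137 ± 5.28). The library values of Celsr3, Vangl2, Celsr2 and Prickle1 overlapped from neighbor to neighbor, while Fzd3 lay below them. Ptk7 (52.8 ± 0.66), Scrib (46.5 ± 1.62) and Prickle2 (28.6 ± 2.95) followed at lower levels, and Vangl1 (8.69 ± 2.55) and Celsr1 (2.68 ± 0.49) were the least abundant. In cMN4 at e10.5, in contrast, Celsr1 was at 18.0 ± 3.51 TPM and Prickle1 at 32.0 ± 6.36 TPM. RSEM's mean transcript length, which follows the estimated mix of isoforms, was constant for Celsr1 (11050 bases) and Ptk7 (4255 bases), which have a single transcript in the quantification, but ranged from 5765 to 8598 bases for Celsr3 and from 3664 to 5509 bases for Scrib.

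The share of each paralogue in the summed TPM of its family was compared within libraries, where the scaling of a library plays no part. Celsr1 supplied 0.365 to 0.854% of the Celsr TPM in cMN7, 1.67 to 2.89% in cMN3 and 6.19 to 10.3% in cMN4, with no overlap between nuclei. Celsr2 and Celsr3 supplied the rest, with Celsr3 at 49.3 to 66.5% in cMN7 and 44.3 to 70.9% in cMN3 and cMN4. Prickle1 supplied 85.0 to 92.7% of the Prickle TPM in cMN7, 78.4 to 85.2% in cMN3 and 57.8 to 77.3% in cMN4. Vangl2 supplied 92.2 to 96.3% of the Vangl TPM in cMN7 and 87.8 to 93.7% in the other nuclei. In an exact two-sided permutation test within age over all arrangements of the labels, the differences between cMN7 and cMN3/4 were −4.24 percentage points for Celsr1 (p = 0.0356), 11.8 for Prickle1 (p = 0.0578), 3.21 for Vangl2 (p = 0.04), 4.26 for Celsr2 (p = 0.0711) and −0.02 for Celsr3 (p = 1). After adjustment over these 5 shares none passed, with 0.0889 for the first 4, and the design could not give a p below 0.00444. The labels were permuted across cMN3 and cMN4 too, so the gap between those nuclei enters each p, not replicate spread alone. For Celsr1, where cMN4 lay furthest from the rest, a missed threshold does not mean that the nuclei overlapped.

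**Figure D3:**
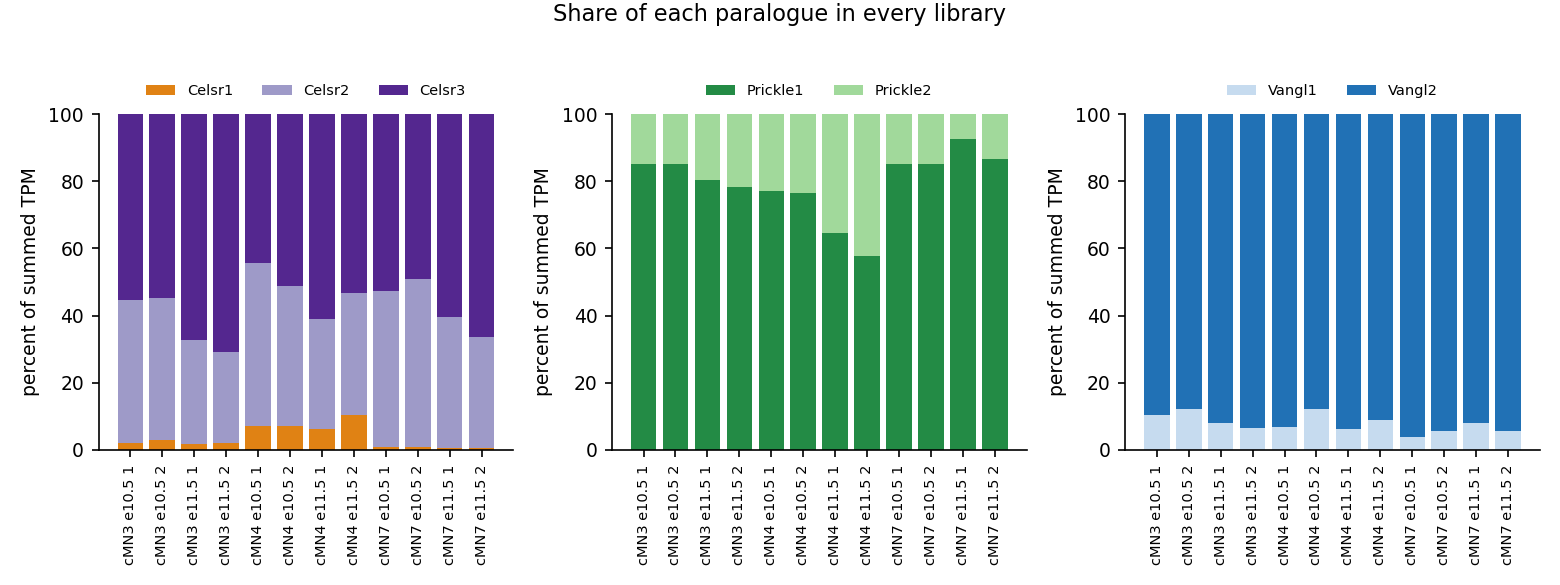
Share of each paralogue in the summed TPM of the Celsr, Prickle and Vangl families (y axis, percent, from 0 to 100) in each of the 12 libraries (x axis, nucleus, age and replicate). Celsr1 takes at most 0.854% of the Celsr sum in cMN7 and 6.19 to 10.3% in cMN4, and Prickle2 takes its largest share in cMN4 at e11.5.

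Patterns over the 12 libraries were compared after the mean of each age was removed. Among the 10 genes, Vangl2 and Ptk7 moved together (Pearson's r = 0.934) and Celsr1 and Prickle1 in opposite directions (r = −0.974). The libraries share groups and preparations, so these values describe the pattern and carry no test. Among 7798 genes of moderate or high level, the pattern nearest to that of Ptk7 was that of Fzd7 (r = 0.962), followed by Cdc42se1 and Mb21d2. The nearest to Vangl2 were Nectin1 (0.985), Slc22a15 and Slc18a2, and the nearest to Celsr1 were Tmem164 (0.986), Dusp6 and Ubash3b. For Prickle1 they were Epb41l4a (0.977), Kcnn1 and Pcdh7, and for Prickle2 Lrp1 (0.963), Drp2 and Vgll4.

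The rest of the pathway was described from 7 lists holding 74 genes, of which 72 were tested. Over both ages 12 were higher and 5 lower in cMN7, and the median log2 fold change was 0.06, beside 0.01 over all genes tested. At e10.5 14 were higher and 2 lower, and at e11.5 5 were higher and 6 lower. Of all genes tested, 6.18% were higher and 5.05% lower over both ages, 6.16% and 5.33% at e10.5, and 2.71% and 2.26% at e11.5. On both TPM scales Wnt7b, Nkd1, Dlg2, Lrrc7 and Fat4, described next, no longer passed over both ages (adjusted p from 0.0514 to 0.366, limma).

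Among 7 Wnt ligands linked to the pathway, Wnt5a and Wnt5b were lower in cMN7 and Wnt7b was higher. Wnt5a, a secreted ligand that can signal without beta-catenin, was 5.11-fold lower (log2 −2.35, SE 0.23, adjusted p = 2.85e-05, edgeR). In TPM it was at 6.67 ± 1.07 in cMN3, 6.41 ± 1.0 in cMN4, and at 3.83 ± 3.57 in cMN7 (e10.5, SD, n = 2). At e11.5 it was at 12.4 ± 1.47 in cMN3, 9.29 ± 3.28 in cMN4 and 1.93 ± 0.30 in cMN7. In CPM every cMN7 library lay below all others, but in TPM the cMN7 libraries of e10.5 spread widely. Wnt5b was 3.20-fold lower over cMN3 and cMN4 together, but its level lay in cMN3, at 10.1 ± 1.43 TPM at e10.5, while cMN4 was at 1.91 ± 0.62 TPM, near the 1.99 ± 0.25 TPM of cMN7. Wnt7b was low everywhere, with group means of at most 2.69 TPM, and its log2 fold change of 1.91 (adjusted p = 0.0223) no longer passed without replicate 2 of cMN7 at e10.5 (1.56, adjusted p = 0.156), without its counterpart at e11.5 (1.78, adjusted p = 0.0625) or without replicate 1 of cMN3 at e10.5 (1.82, adjusted p = 0.0515). Wnt7a and Wnt4 did not pass.

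Among 12 receptors and co-receptors tested, 4 were higher and 2 lower in cMN7, beside 6.18% and 5.05% of all genes. Ror2, a receptor tyrosine kinase for Wnt5a, was 9.30-fold higher (log2 3.22, SE 0.13, adjusted p = 2.28e-08, edgeR), at 30.3 ± 2.49 TPM in cMN7 at e10.5 and 15.5 ± 2.02 TPM at e11.5 against group means of at most 4.80 TPM in cMN3 and cMN4. The Frizzled receptor Fzd1 was 5.33-fold higher (log2 2.41, SE 0.08), at 91.5 ± 12.9 TPM in cMN7 at e10.5 and 55.9 ± 6.43 TPM at e11.5. Fzd7 was 2.39-fold and Fzd2 2.20-fold higher, so that Fzd1, Fzd2 and Fzd7, which form a subfamily, were all higher in cMN7 while Fzd3 did not pass the test. Fzd6 (−3.20, SE 0.75) and Fzd10 (−1.70, SE 0.43) were lower. Fzd6 was low everywhere, with group means of at most 3.1 TPM. The level of Fzd10 lay in cMN3, at 9.2 TPM at e10.5 and 17.6 TPM at e11.5. In cMN4 Fzd10 was at 1.4 and 3.2 TPM, and in cMN7 at 2.7 and 1.3 TPM. Ryk, an atypical receptor kinase, and the co-receptor Lrp6 did not pass, with log2 values of 0.10 (SE 0.08) and 0.15 (SE 0.16).

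Of 14 genes of the cytoplasmic core, among them the Dishevelled genes, 1 passed as lower, beside 5.05% of all genes tested. Nkd1, an antagonist of Dishevelled, was lower in cMN7 (−0.96, SE 0.19, adjusted p = 0.00626, edgeR). It no longer passed without replicate 1 of cMN7 at e10.5 (−0.90, adjusted p = 0.0519). The list had 3 genes past the threshold without replicate 2 of cMN7 at e11.5 and 4 under the replicate block. The kinases Csnk1e and Csnk1d, the most abundant that did not pass, had log2 values of 0.16 (SE 0.08) and 0.23 (SE 0.08). Csnk1d did pass under the replicate block (adjusted p = 0.0369), with DESeq2 (adjusted p = 0.0227) and when the e11.5 cMN7 replicate 2 was left out (adjusted p = 0.0453).

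In the Scribble module, 3 of 14 genes were higher in cMN7, beside 6.18% of all genes tested, and 1 of 14 passed on both TPM scales. Llgl1, a Lgl family partner of Scrib, was 1.48-fold higher (log2 0.56, SE 0.09, adjusted p = 0.00123, edgeR), and all 4 of its cMN7 libraries lay above the others. Dlg2, a scaffold of the Discs large family, was at 1.56 (SE 0.32), with 0.48 (adjusted p = 0.292, limma) on log2(TPM + 1) and 0.96 (adjusted p = 0.366) on log2(TPM + 0.1). Lrrc7, a synaptic scaffold, was 2.17-fold higher than in cMN3/4 (SE of the log2 value 0.27). At e10.5 its group means were 4.3 TPM in cMN7, 1.9 TPM in cMN3 and 0.29 TPM in cMN4. At e11.5 cMN3, at 6.28 TPM, lay above cMN7, at 3.6 TPM, and cMN4 was at 1.5 TPM. Lrrc7 was lost without replicate 2 of cMN7 at e10.5 (0.89, adjusted p = 0.144) or at e11.5 (0.97, adjusted p = 0.0633). At e10.5 alone 3 of the 14 passed. At e11.5, where 2.71% of all genes were higher, 0 of the 14 passed by edgeR, and 1 had an unadjusted p under 0.05, Llgl1 (0.29, adjusted p = 0.346).

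Of 7 genes tested in the Fat-Dachsous system, a second cadherin pathway of tissue polarity, 3 were higher in cMN7, beside 6.18% of all genes. Fat3 was at 0.67 (SE 0.14, adjusted p = 0.01, edgeR) over both ages, with 1.40 at e10.5 and −0.06 at e11.5. Fat4 was at 0.66 (SE 0.16, adjusted p = 0.0209) and Lix1l, a vertebrate relative of Drosophila lowfat, at 0.47 (SE 0.09). Without replicate 2 of cMN7 at e10.5, Fat3 (0.65, adjusted p = 0.0544) and Fat4 (0.62, adjusted p = 0.11) no longer passed and 1 of the 7 remained. Fat4 also lost its call without replicate 1 of cMN4 at e10.5 (0.66, adjusted p = 0.0507), replicate 1 of cMN7 at e10.5 (0.70, adjusted p = 0.0607) or replicate 2 of cMN7 at e11.5 (0.34, adjusted p = 0.0573). Dchs1, the most abundant gene of this list, had a log2 value of 0.13 (SE 0.11), and Fjx1 of −0.13 (SE 0.13).

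None of the 3 PCP effectors passed by edgeR or by DESeq2, or at an unadjusted p under 0.05. Among them Fuz and Wdpcp, which act in ciliogenesis, had log2 values of −0.18 (SE 0.14) and −0.19 (SE 0.21). Of 15 cytoskeletal effectors 1 passed as higher, beside 6.18% of all genes tested. It was Mapk10, a neuronal Jun kinase, 2.37-fold higher in cMN7 (log2 1.24, SE 0.09, adjusted p = 1.97e-06, edgeR). The count was 2 of the 15, all higher, without the filter, with DESeq2, with voom weights and on log2(TPM + 1). Under the replicate block it was 3, 2 of them higher and 1 lower. It also changed when some single libraries were left out. The small GTPases Cdc42 and Rac1 had log2 values of −0.15 (SE 0.09) and −0.13 (SE 0.09).

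**Figure D4:**
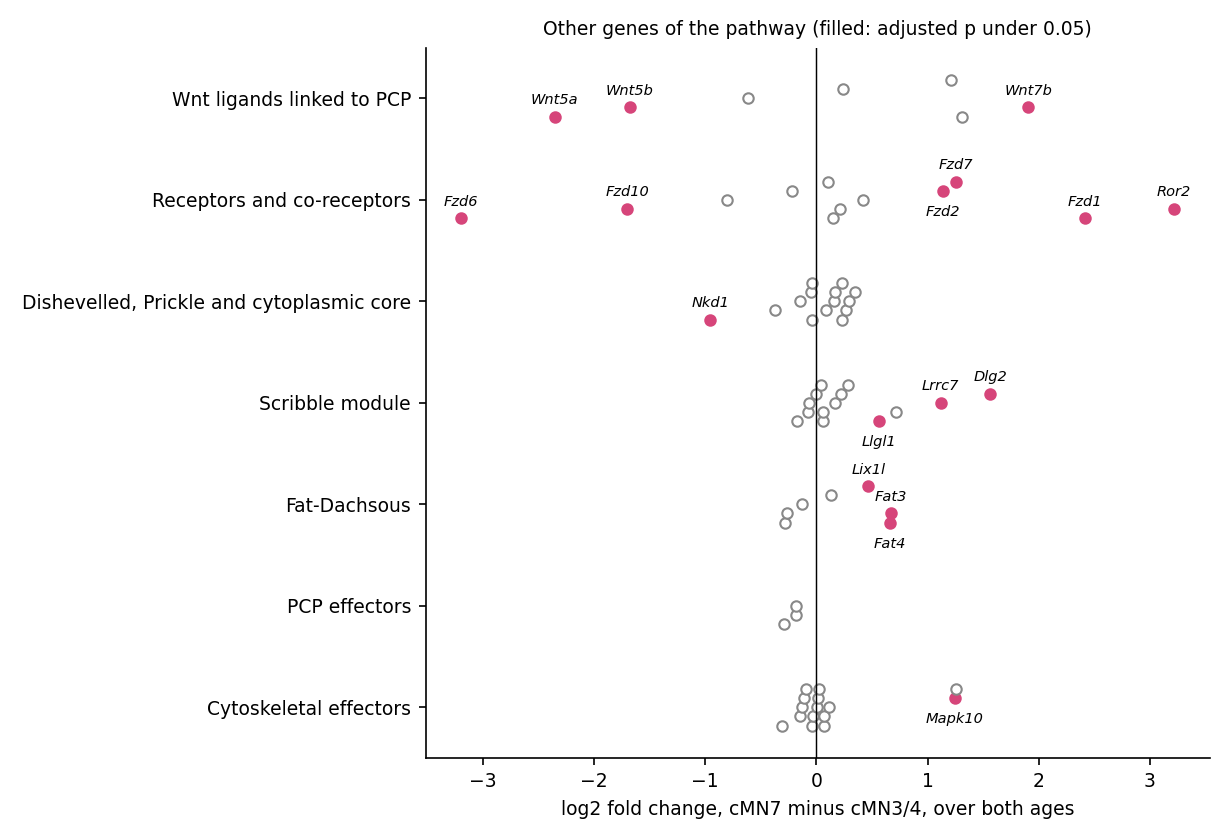
Log2 fold change in cMN7 against cMN3/4 over both ages (x axis) of each tested gene of the 7 pathway lists (y axis). Filled circles passed an adjusted p of 0.05 and are named. The receptors and co-receptors run from Fzd6 at −3.20, with group means of at most 3.1 TPM, to Ror2 at 3.22.

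A list of 21 other genes of facial neuron identity and migration held 12 that were higher and 4 that were lower in cMN7, beside 6.18% and 5.05% of all genes tested. Tbx20, a T-box factor of facial motor neurons, was at 470 TPM on average in cMN7 at e10.5 and 230.1 TPM at e11.5, against group means of at most 8.09 TPM elsewhere. Hoxb1, the determinant of the hindbrain segment from which facial neurons arise, averaged 141 and 45.4 TPM in cMN7 and at most 0.02 TPM in cMN3 and cMN4. Gata3 and Gata2, zinc finger factors of the same segment, had log2 fold changes of 6.76 (SE 0.20) and 6.10 (SE 0.29). Nkx6-1 and Ebf1 did not pass (−0.18, SE 0.12, and −0.20, SE 0.10), although Ebf1 did without replicate 2 of cMN7 at e11.5 (−0.33, adjusted p = 0.0284, edgeR).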

How the data were processed

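Bulk RNA-seq of sorted GFP-positive motor neurons was analysed in 12 libraries, 2 in each of 6 groups. The authors aligned 100 bp paired-end reads with STAR to the Ensembl GRCm38 mouse reference and quantified genes with RSEM, then deposited expected counts (estimated, not normalized), TPM and FPKM per gene. The versions of STAR and RSEM are not given in the sources used here. FPKM was not used. Expected counts were rounded to whole numbers. Libraries of cMN6 were not analysed here.

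Genes with enough counts (filterByExpr of edgeR 4.0.16, minimum count 10) were scaled by TMM and compared by quasi-likelihood F tests of edgeR on 6 group means, which left 6 residual degrees of freedom, with Benjamini-Hochberg adjustment over 18022 genes and a threshold of 0.05. The code was tested on simulated data. CPM values follow TMM scaling. The 10 genes, the pathway and marker lists and the tests were chosen with earlier results of these data known. From each pathway list up to 4 genes with the smallest p that passed and up to 2 abundant ones that did not were named. Fzd6 and Fzd10, which also passed, were named after their values were seen. Coordinates come from GENCODE's GRCm38 annotation and promoters from RefSeq.

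Alternatives were DESeq2 1.42.0, its size factors, no filter, voom with library weights and limma 3.58.1 on log2(TPM + 1) and log2(TPM + 0.1), a replicate block, libraries of the same age alone, leaving out the pair richest in ribosomal RNA, and leaving out each library. Replicate letters of the labels were checked for pairing by the correlation of deviations from group means. It was 0.052, −0.012 and 0.104 at e10.5, and 0.728, 0.605 and 0.581 at e11.5. Libraries of the same letter thus deviated together at e11.5, but the labels do not say what a letter marks. The main fit holds no replicate block, so its spread between pools includes this shared part. Expected counts share reads between isoforms and near-identical copies by estimation. Genes overlapping the 10 held at most 93 counts in all. The result of an individual gene of the marker lists is not reported here.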

Additional observations from a re-analysis of the deposited data

Results flagged for a closer look

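None of the 10 genes passed the test of a difference between the ages in the cMN7 contrast. Of the 72 pathway and 21 facial genes tested 8 did (edgeR's quasi-likelihood test, adjusted p below 0.05), beside 0.755% of all genes tested. Tnik, a kinase of the Misshapen family, was higher in cMN7 at e10.5 (log2 0.81, adjusted p = 0.00624) and lower at e11.5 (−0.67, adjusted p = 0.0375), an interaction of −1.48 (adjusted p = 0.0151). Ankrd6, the Diversin homologue that binds Dishevelled, went the same way, from 0.40 (adjusted p = 0.0439) to −0.51 (adjusted p = 0.027), an interaction of −0.91 (adjusted p = 0.0309). The e11.5 value of Tnik rests on cMN7 libraries that lay far apart, at 28.3 ± 16.4 TPM (SD, n = 2). At that age Tnik was at 60.2 ± 0.14 TPM in cMN3 and 39.4 ± 2.36 TPM in cMN4, and the spread of cMN7 reached the level of cMN4. As a ratio, the excess of Ror2 in cMN7 was larger at e11.5, with an interaction of 1.39 (adjusted p = 0.0417). Its mean TPM was lower at e11.5 in every nucleus. It was 15.5 against 30.3 in cMN7, 0.88 against 3.1 in cMN3 and 1.5 against 4.8 in cMN4. Smaller log2 differences at e11.5 than at e10.5 were found for Tbx20 (−4.20), Gata2 (−4.78), Gata3 (−3.58) and Nrp1 (−2.62). At e10.5 the means of Tbx20, Gata2 and Gata3 were 0.06, 0.14 and 0.3 TPM in cMN3. In cMN4 they were 4.2, 1.0 and 0.27 TPM, so these log2 differences rest in part on values near the floor. The deficit of Ret, the receptor for GDNF family ligands, against cMN3/4 shrank by 1.31. In mean TPM this deficit lay against cMN4, where Ret was at 91.79 TPM at e10.5 and 91.85 TPM at e11.5. In cMN7 Ret was at 10.52 and 37.6 TPM, near the 8.3 and 37.7 TPM of cMN3. Age and library preparation changed together, so their parts in these interactions cannot be told apart.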

How the results depend on the processing

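In all 23 alternatives were run, 12 of which left out a single library; 20 to 22 of them applied to each comparison of genes and 13 to the shares. Of 1630 values of the 10 genes under an alternative, 1534 kept their side of the threshold, 67 newly passed, 25 no longer passed and 4 turned direction; 56 further changes of sign concerned values that passed under neither setting. Over both ages 5 to 7 of the 10 genes passed without 1 library in cMN7 against cMN3/4, and 5 in every case against cMN4. The range was 5 to 7 at e10.5, 3 to 5 at e11.5, 4 to 7 against cMN3 (7 without replicate 1 of cMN7 at e11.5), 2 to 3 for cMN3 against cMN4, 0 to 5 for the interaction and 5 to 7 between the ages. The count at e10.5 rose from 5 to 8 without the filter and with that age alone, and that at e11.5 fell from 4 to 2 on both TPM scales. For the interaction it was 1 with DESeq2 size factors, 3 without the filter, 2 with DESeq2, 1 with voom weights and 2 with the replicate block. Between the ages it fell from 6 to 3 on both TPM scales, where Celsr3 turned from −0.51 to 0.15 under either pseudocount and Ptk7 from −0.27 to 0.20 and 0.21; relative to the TPM median of 0.33 and 0.46 all 4 values are negative. Ptk7 between the ages also lost its call without the filter, under the block and in 11 of the 12 fits that left out a library. The block, which pairs libraries by letter within each age, added Celsr2 (adjusted p = 0.034, edgeR) and Celsr3 (0.0415) at e10.5. It also added Prickle2 against cMN3 (0.0406) and Prickle2 in cMN3 against cMN4 (0.0432). In the interaction it added Prickle2 (0.0206) and Celsr1 (0.0466), and between the ages Scrib (0.0307). The block left 4 genes passing at e11.5 when that age was fitted alone, and no other call of the 10 genes changed. Without 1 library, the share of Celsr1 differed by −4.80 to −3.36 percentage points, of Celsr2 by 2.84 to 5.69, of Celsr3 by −1.68 to 1.47, of Vangl2 by 2.63 to 3.81 and of Prickle1 by 9.69 to 13.5; with CPM in place of TPM the Celsr3 difference was 4.76. The fewest counts among the 10 genes lay behind Vangl1, 66 to 348 per library, so depth limits its values most.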
